A study of Homo sapiens with 6 samples.

Results

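Forkhead factors other than FOXL2 were examined in human granulosa cells depleted of FOXL2. The 10 genes were FOXO1, FOXO3, FOXO4, FOXM1, FOXP1, FOXK1, FOXK2, FOXJ3, FOXN3 and FOXC1, chosen by name from the 60671 genes of each table, and a further 38 forkhead genes served for comparison. The cells were KGN, a human granulosa cell line that was edited by CRISPR so that both FOXL2 alleles are wt (FOXL2 WT/WT), and this genotype was shared by both conditions. In the first condition, 3 libraries came from cells given 30 pmol of a FOXL2 siRNA pool. Each pool held 3 siRNAs and differed from each other pool in only 1 of them, and 1 siRNA was common to all 3 pools. The 3 libraries thus replicate the depletion and not the siRNA mixture. In the second, 3 libraries came from cells given the same amount of a control siRNA (scrambled). RNA was extracted at 30 h, and nothing in the sources says that the libraries came from independent cultures, so the p-values measure the spread between these libraries.

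Forkhead proteins share a winged helix DNA-binding domain whose recognition helix lies in the major groove and reads a short A/T-rich core. FOXL2 is the forkhead factor that maintains granulosa cell identity. FOXO1, FOXO3 and FOXO4 are kept out of the nucleus when AKT phosphorylates them and act on genes of cell cycle arrest, apoptosis and oxidative defense, and FOXO3 restrains the activation of ovarian follicles. FOXM1 drives genes of the G2/M transition in dividing cells. FOXK1, FOXK2, FOXP1 and FOXN3 are known mostly as repressors that recruit corepressor complexes. The question asked of the data was whether the mRNA of any of these genes was higher when FOXL2 was depleted. Compensation that leaves the mRNA level of a factor unchanged would not be seen in this comparison.

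How alike the family is in its DNA-reading part can be seen in the 24 bases of coding sequence at that helix, which are shown for FOXL2, for the closest and the most distant of the 10 genes, and for FOXM1 and FOXO3. They are read from transcripts of GENCODE v29 (GRCh38), 5′ to 3′, and capitals mark the bases that differ from FOXL2.
FOXL2: aatagcatccgccacaacctcagc
FOXC1: aaCagcatccgccacaacctcTCG
FOXM1: aaCTCcatccgccacaacctTTCc
FOXO3: aaCTCcatccgGcacaacctGTCA
FOXN3: aaCTCAGtGAgAcacaaTTtATCA
The FOXL2 stretch is at chr3:138946402-138946425 on the minus strand and that of FOXC1 at chr6:1610815-1610838 on the plus strand, each within the gene's coding sequence. FOXC1 differed from FOXL2 at 4 of the 24 bases, FOXM1 at 6, FOXO3 at 8 and FOXN3 at 14. Over whole transcripts the resemblance was short. The longest run of identical bases that the longest FOXL2 transcript shared with that of any of the 10 genes was 20 bases, with FOXC1, against reads of 75 bases. Among the 10 genes themselves the longest shared run was 36 bases, between FOXK1 and FOXK2. FOXO3 shared a run of 398 bases with its near-identical copy FOXO3B on chromosome 17, so reads may be split between those genes and the values of FOXO3 are uncertain to that extent.

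The forkhead transcripts were also searched for a loose form of the G2-rich motif that the study drew from its in vitro selections. It was written here as 8 GG doublets separated by gaps of 1 to 4 bases of any kind and sought on the transcript's strand alone. The study's consensus is stricter, since it fixes an A in some gaps and keeps most gaps shorter. Below, the motif means the loose form. The motif was in the longest transcript of 6 of the 10 genes and of 4 of the 11 other forkhead genes tested. Over the 15530 tested genes with a transcript in GENCODE v29, the longest transcript held it in 19.3%. Where that transcript had at least 2500 bases, the motif was present in 23.4%. In the coding sequence it was present in FOXL2, FOXO1, FOXO3, FOXK1, FOXK2 and FOXC1. FOXO4 had it in the 3′ UTR, and no coding transcript of FOXM1, FOXP1, FOXJ3 or FOXN3 held these letters. The stretch of FOXL2 is given with those of FOXK2 and FOXC1, with runs of G in capitals (a run of 5 holds a pair of doublets).
FOXL2: GGcaaGGGcGGtGGGGGtGGcGGcGG
FOXK2: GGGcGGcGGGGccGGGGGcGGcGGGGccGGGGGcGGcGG
FOXC1: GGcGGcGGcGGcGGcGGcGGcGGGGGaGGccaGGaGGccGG
They lie, in the same order, at chr3:138946595-138946620 (minus), chr17:82519936-82519974 (plus) and chr6:1611784-1611824 (plus). A match is a description of the sequence and says nothing of binding. The genes that held the motif had log2 fold changes on both sides of 0, as given below gene by gene.

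Expected counts per library summed to between 23843192 and 28791954, and 15663 genes passed the filter on low counts, among them all 10 genes. The values are relative to the library, so less RNA per cell and fewer cells cannot be told apart. In a principal component analysis, FOXL2 siRNA replicate 2 stood apart, with a score of 40.9 on a first component that held 31.2% of the variance, while the other 5 libraries lay between -17.2 and -0.025. The granulosa label was matched in part. Of 17 granulosa genes 10 passed the filter, with mean TPM values of 36.6 for NR5A1, 69.4 for FST, 26.8 for AMH and 16.0 for STAR, while FSHR and WT1 were listed at 0 in every library and GATA4 reached at most 0.03 TPM. Of 10 markers of Sertoli, theca and stromal cells and 10 of epithelial, endothelial and immune cells, 6 each were tested and edgeR called 0, with 1 higher and 2 lower at an unadjusted p below 0.05, while DESeq2 called 1 of the former. For comparison, 6.67% of all genes tested were higher and 6.78% lower at that unadjusted p, and DESeq2 called 3.0% of the genes to which it gave an adjusted p. The granulosa list was not the most abundant of the 3, with summed TPM of 221, 225 and 220 in the controls. The Sertoli, theca and stromal markers summed to 305, 306 and 366 TPM there. The epithelial, endothelial and immune markers summed to 105, 96.8 and 118 TPM. FOXL2 itself was at 5.36, 5.28 and 5.72 TPM with the control siRNA and at 1.41, 1.90 and 1.27 TPM with the FOXL2 siRNAs. Its log2 fold change was -1.88 (SE 0.143, adjusted p = 0.00311 in edgeR). That call was lost when control siRNA replicate 1 was left out, where the log2 fold change was -1.90 and the adjusted p was 0.053.

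None of the 10 forkhead genes passed the test for a change. edgeR's quasi-likelihood test at an adjusted p below 0.05 called 0 of 10 in either direction, where it called 0.262% of all genes tested. DESeq2 called 0 of them against 3.0% of the genes to which it gave an adjusted p. It gave FOXO1 no adjusted p, so that gene could not be called there. At an unadjusted p below 0.05, 0 of the 10 were higher and 0 were lower in edgeR, where 6.67% and 6.78% of all genes were, and DESeq2 and limma-voom also gave 0. Their median log2 fold change was -0.03, with 2 above 0 and 8 below, and over all genes tested the median was 0.01. The median size of the log2 fold changes, without sign, was 0.08 for the 10 genes and 0.12 for all genes. CPM ranges were separate between conditions in 2 of the 10, FOXM1 and FOXO4, which were lower after FOXL2 siRNA, against 10.6% of all genes lower without overlap and 9.97% higher without overlap.

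**Figure D1:**
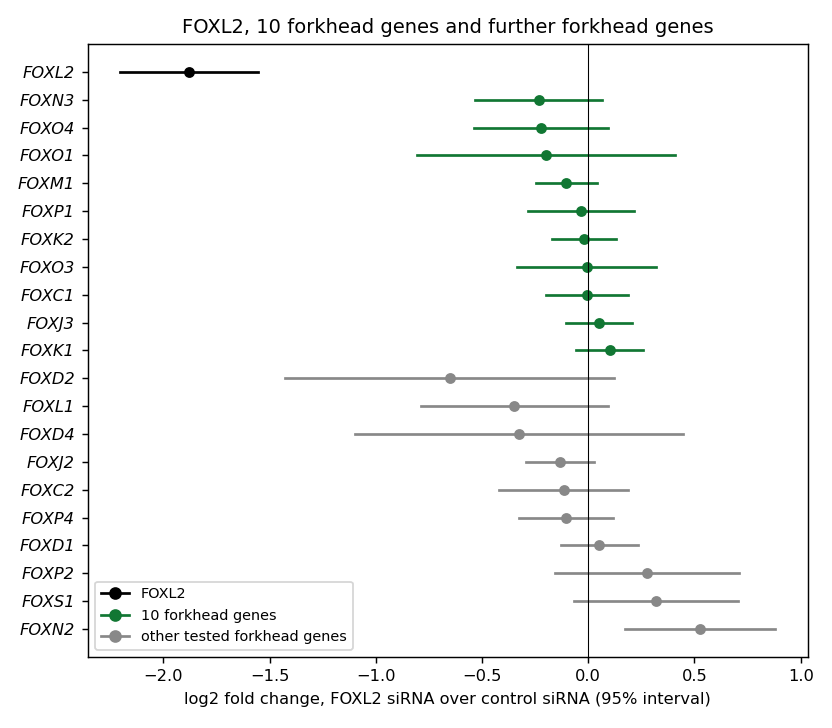
Log2 fold change of FOXL2 siRNA over control siRNA (horizontal axis) with its 95% interval from edgeR's quasi-likelihood fit, for FOXL2 in black, the 10 forkhead genes in green and further forkhead genes that passed the filter in gray. FOXL2 lies at -1.88, the 10 genes lie between -0.23 and 0.10 with intervals that all include 0, and FOXN2 at 0.53 is the gray gene whose interval does not reach 0.

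In the fit on counts, the upper 95% bound of the fold change was 1.03 for FOXM1, 1.05 for FOXN3, 1.07 for FOXO4, 1.09 for FOXK2, 1.14 for FOXC1, 1.16 for both FOXP1 and FOXJ3, 1.20 for FOXK1, 1.25 for FOXO3 and 1.33 for FOXO1. The bound was widest for the FOXO genes other than FOXO4. With few counts for FOXO1 and a wide spread for FOXO3, smaller increases in these genes lie within the intervals. These bounds hold for the fit on counts alone. With effective lengths as offsets, the bound for FOXO1 was 2.88 around a fold change of 1.63, and the bounds of the other 9 genes lay between 0.965 for FOXO4 and 1.19 for FOXO3 and FOXK1.

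The levels of the 10 genes, which are compared here in TPM because TPM is scaled to transcript length, spanned a wide range in the control libraries. FOXM1 came first with a control mean of 160.7 TPM. FOXK2 (33.8) and FOXP1 (25.0) followed, then FOXJ3 (18.4) and FOXO3 (17.8), whose control ranges overlapped, then FOXN3 (11.9) and FOXK1 (10.7). FOXL2, with 5.45 TPM, ranked eighth of 11 and overlapped with FOXC1 (5.04), and FOXO4 (2.58) and FOXO1 (0.50) were lowest. Every other pair of neighbors in this order had control ranges that did not overlap. After FOXL2 siRNA the first 5 and the last kept their ranks, FOXK1 and FOXN3 exchanged places, and FOXL2 moved below FOXC1 and FOXO4.

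**Figure D2:**
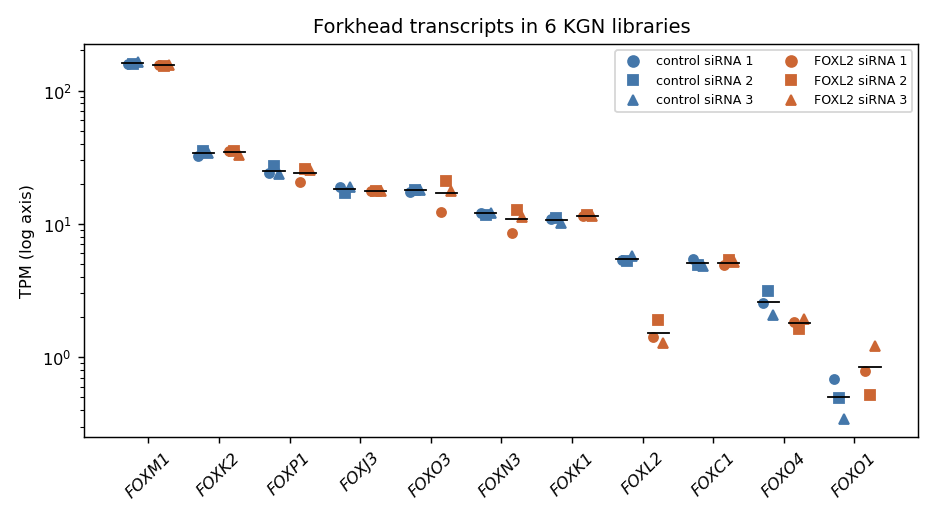
TPM on a log axis (vertical) of FOXL2 and the 10 forkhead genes, ordered by their control mean, with a point for each of the 6 libraries and a bar at the mean of each condition. FOXL2 moves from 5.45 to 1.53 TPM, while FOXM1 stays between 152.1 and 164.2 TPM in all 6 libraries.

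As a share of the whole family, FOXL2 was small. The summed TPM of FOXL2, the 10 genes and the 38 others was 469.2, 466.7 and 460.0 with the control siRNA and 434.2, 463.8 and 462.8 with the FOXL2 siRNAs. FOXL2 made up 1.17% ± 0.0618 (SD, n = 3) of it in the controls and 0.336% ± 0.0684 (SD, n = 3) after FOXL2 siRNA. The 10 genes together were at 282.7, 288.0 and 288.6 TPM and at 268.4, 283.7 and 280.4 TPM, so that the ratio of the means was 0.969 and 2 of the 3 FOXL2 siRNA libraries were below every control. Mean FOXL2 fell by 3.93 TPM, and the summed TPM of the 10 genes dropped by 8.94 on average, with SDs of 3.24 and 8.08 TPM in the control and FOXL2 siRNA libraries.

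FOXO3, the most abundant of the FOXO genes, was at 72.0, 71.8 and 69.8 CPM with the control siRNA and at 54.9, 88.4 and 69.4 CPM with the FOXL2 siRNAs. The controls were close together, whereas FOXL2 siRNA replicate 1 was the lowest and replicate 2 the highest of the 6 libraries. The log2 fold change of FOXO3 was -0.01 (95% interval -0.33 to 0.32, adjusted p = 0.989 from edgeR), and it was 0.15 without FOXL2 siRNA replicate 1 and -0.20 without replicate 2. FOXO3B had between 150 and 214 counts in each library, and the value for the summed counts of the pair was -0.02. FOXO4, a shorter FOXO gene on the X chromosome, was at 3.55, 3.55 and 3.51 CPM and at 2.85, 3.22 and 3.02 CPM. All 3 FOXL2 siRNA libraries were below all 3 controls (p = 0.1, two-sided, in an exact permutation test, which cannot go lower with groups of 3). Its log2 fold change was -0.22 (95% interval -0.54 to 0.09, adjusted p = 0.524 from edgeR). Once the effective length that RSEM gave each library entered edgeR as an offset, it was -0.51, with an unadjusted p of 0.0328 and an adjusted p of 0.351, the only unadjusted p below 0.05 among the 10 genes in that edgeR fit.

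FOXO1, the FOXO gene of insulin signaling, was at the bottom of the range, and its direction depended on how transcript length was treated. In rounded expected counts the controls held 64, 45 and 35 and the FOXL2 siRNA libraries 39, 45 and 48. After normalization these were 2.55, 1.84 and 1.31 CPM against 1.43, 1.86 and 1.67 CPM, and the conditions overlapped. The TPM values were 0.68, 0.49 and 0.34 against 0.79, 0.52 and 1.21, also overlapping but with a higher mean after FOXL2 siRNA. RSEM had assigned FOXO1 a mean transcript length of 5779 bases in all 3 controls and in FOXL2 siRNA replicate 2, but 2824 bases in replicate 1 and 2212 bases in replicate 3, and TPM divides by that length. GENCODE v29 lists 1 coding transcript of FOXO1, with 5735 bases, among 3 transcripts. The deposited tables list 4 transcripts of FOXO1, so RSEM's lengths rest on a different set. The log2 fold change was -0.20 (95% interval -0.81 to 0.41, adjusted p = 0.786 from edgeR) on the counts and 0.70 (SE 0.366, adjusted p = 0.465 from edgeR) with effective lengths as offsets. Neither passed the threshold, and the smallest change detectable at these counts was not computed. The value with offsets depended on the libraries. In edgeR it was 0.99 (unadjusted p = 0.0203, adjusted p = 0.252) without FOXL2 siRNA replicate 2. It was 0.98 (unadjusted p = 0.0390, adjusted p = 0.537) without control siRNA replicate 1, and 0.37 (unadjusted p = 0.347) without FOXL2 siRNA replicate 3.

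**Figure D3:**
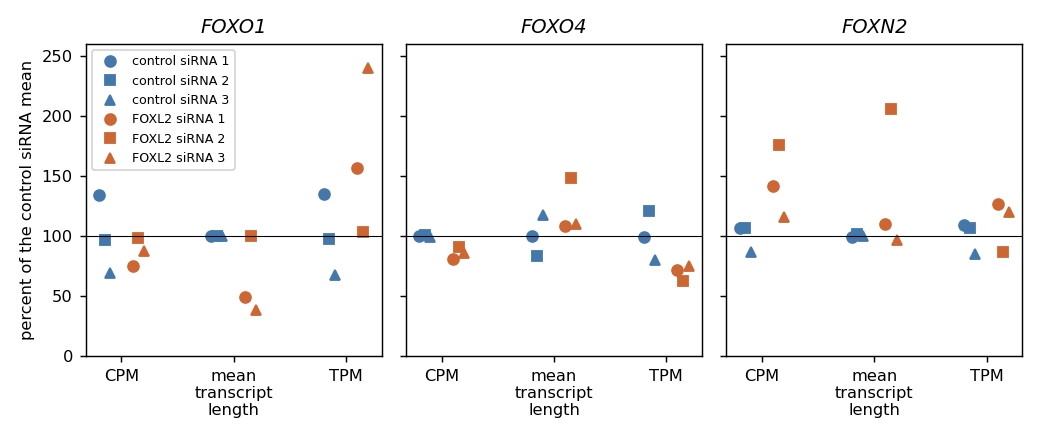
CPM, RSEM's mean transcript length and TPM of FOXO1, FOXO4 and FOXN2 in each library, as a percent of the control siRNA mean (vertical axis), with 1 marker shape per replicate. FOXO1 shows short lengths in FOXL2 siRNA replicates 1 and 3 and high TPM in the same libraries, and FOXN2 shows a long mean length in replicate 2 beside its highest CPM.

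Mean transcript length was tested across the 13144 genes in which it varied. For FOXO1 the log2 difference was -0.81 (SE 0.369) with an unadjusted p of 0.0795 and an adjusted p of 0.867 in limma. Of the 9 forkhead genes with a varying length (FOXC1 had the same length in every library), limma called 0 at an adjusted p below 0.05 and 0 at an unadjusted p below 0.05, where it called 0.0% and 5.64% of all genes. For FOXM1, the gene with the most reads, the lengths lay between 2961 and 3084 bases in all 6 libraries.

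FOXM1, the cell cycle member, was the most abundant and among the most precisely measured of the 10. It was at 307, 311 and 319 CPM in the controls and at 302, 269 and 301 CPM after FOXL2 siRNA. The ranges were separate, but only FOXL2 siRNA replicate 2 was well below the rest. The log2 fold change was -0.10 (95% interval -0.25 to 0.04, adjusted p = 0.509 from edgeR), and -0.06 without FOXL2 siRNA replicate 2.

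The FOXK pair, which bind the SIN3 corepressor and the BAP1 deubiquitinase complex, showed small values in either direction. FOXK1 was at 64.0, 65.7 and 63.7 CPM with the control siRNA and at 72.4, 63.7 and 71.1 CPM with the FOXL2 siRNAs. Replicates 1 and 3 were above every control and replicate 2 was among them. Its log2 fold change was the highest of the 10 at 0.10 (95% interval -0.06 to 0.26, adjusted p = 0.558 from edgeR). Without FOXL2 siRNA replicate 2, edgeR gave 0.15 (unadjusted p = 0.0250, adjusted p = 0.209). It gave 0.11 (unadjusted p = 0.126) with offsets and without that library, and 0.07 (unadjusted p = 0.405) on counts without replicate 1. In TPM the conditions did not overlap for FOXK1, with 10.9, 11.03 and 10.1 against 11.4, 11.6 and 11.5. The share of all genes separate in TPM was not computed, and in CPM 9.97% were higher without overlap. FOXK2 was at 69.0, 71.7 and 73.2 CPM and at 71.5, 66.3 and 73.1 CPM, with a log2 fold change of -0.02 (95% interval -0.17 to 0.13).

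FOXN3, a checkpoint-associated repressor, had the lowest log2 fold change of the 10 and was the gene whose call rested on 1 library. Its CPM values were 37.0, 36.2 and 35.5 in the controls and 24.9, 37.7 and 29.9 after FOXL2 siRNA. FOXL2 siRNA replicates 1 and 3 were below all controls, and replicate 2 was above them. Over all 6 libraries the log2 fold change was -0.23 (95% interval -0.53 to 0.07, adjusted p = 0.477 from edgeR). Without FOXL2 siRNA replicate 2 it was -0.41 (SE 0.0857, adjusted p = 0.0403 from edgeR), so that FOXN3 was the 1 gene of the 10 called in that fit, in which 3.33% of all genes were called. With effective lengths as offsets and the same library left out, it was -0.26 with an adjusted p of 0.374. Without FOXL2 siRNA replicate 1, edgeR gave -0.10 (adjusted p = 0.740) on counts and -0.008 (adjusted p = 0.983) with offsets. The antisense gene FOXN3-AS1 had between 30 and 43 counts per library, and whether the counting used strand is not given in the sources used here.

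FOXP1, a repressor that works with other FOXP proteins as dimers, was at 42.4, 48.4 and 40.9 CPM in the controls and at 36.5, 47.6 and 44.7 CPM after FOXL2 siRNA, with a log2 fold change of -0.03 (95% interval -0.28 to 0.21). FOXP1-IT1, a transcript from within the gene, was below the filter on low counts and was not tested, with 0, 1 and 1 counts in the controls and 5, 16 and 5 after FOXL2 siRNA, so that every FOXL2 siRNA library was above every control. FOXJ3 was at 45.8, 43.5 and 44.0 CPM against 44.6, 49.0 and 44.5 CPM, with a log2 fold change of 0.05 (95% interval -0.11 to 0.21). FOXC1, a factor of mesenchymal tissues and of the eye, was at 13.9, 12.4 and 12.7 CPM against 12.7, 12.9 and 13.3 CPM, with a log2 fold change of -0.01 (95% interval -0.20 to 0.19). In each of these genes the conditions overlapped.

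The FOXL2 siRNA libraries spread more widely than the controls. The coefficient of variation of CPM was larger after FOXL2 siRNA in 8 of the 10 genes, and in 66.8% of all genes tested. It was 1.67% in the controls and 23.7% after FOXL2 siRNA for FOXO3, and 2.03% and 20.9% for FOXN3. In FOXO3, FOXN3 and FOXP1, replicate 1 was the lowest of the FOXL2 siRNA libraries and replicate 2 the highest, whereas in FOXM1, FOXK1 and FOXK2 replicate 2 was the lowest. Each of these libraries had its own siRNA pool, so the pool and the library cannot be told apart.

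**Figure D4:**
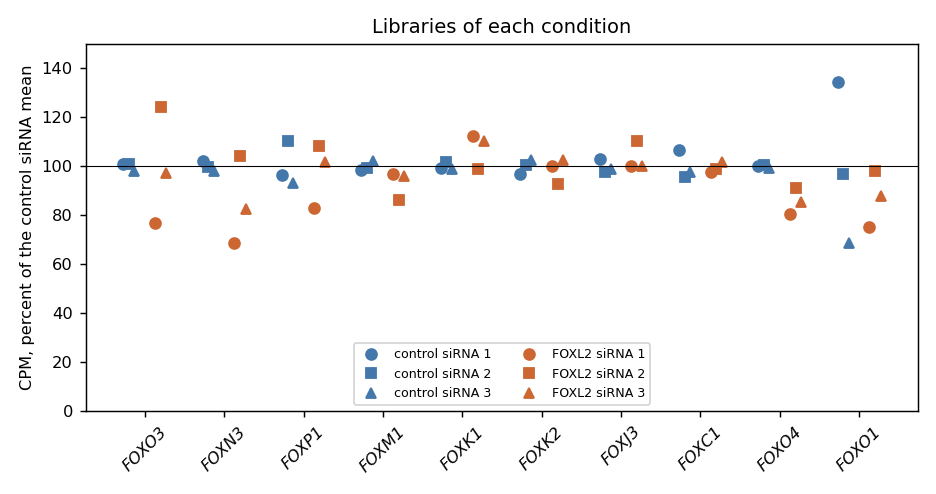
CPM of the 10 forkhead genes in each of the 6 libraries, as a percent of the mean of the control siRNA libraries (vertical axis), with 1 marker shape per replicate. FOXL2 siRNA replicates 1 and 2 are the extremes of FOXO3 and FOXN3, while the controls of these genes lie close to 100%.

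Of the 38 other forkhead genes, 11 passed the filter and 9 reached a mean of 1 TPM, 13 had no count in any library, and no gene below the filter exceeded 12 counts in a library. FOXD1, a factor of stromal tissues, was the most abundant of them, with 73.5, 65.6 and 69.9 TPM in the controls and 78.1, 71.6 and 68.3 TPM after FOXL2 siRNA. Of these 11, edgeR called 0 after adjustment and 1 at an unadjusted p below 0.05, FOXN2, and DESeq2 called 0. CPM ranges were separate in 3 of the 11, with 1 higher after FOXL2 siRNA (FOXN2) and 2 lower (FOXJ2 and FOXD2), where 9.97% of all genes were higher and 10.6% lower without overlap. FOXD2, which averaged under 1 TPM, had 17, 16 and 17 counts in the controls and 9, 15 and 9 after FOXL2 siRNA. FOXN2 had 321, 314 and 277 counts in the controls and 463, 509 and 399 after FOXL2 siRNA, so that every FOXL2 siRNA library was above every control. Its log2 fold change was 0.53 (SE 0.156, unadjusted p = 0.0084 and adjusted p = 0.219 from edgeR). Its mean transcript length was 4305 bases in FOXL2 siRNA replicate 2 and between 2023 and 2295 bases in the other 5 libraries. Once length entered the fit as an offset, its value was 0.15 (SE 0.166), and the TPM values, 10.0, 9.82 and 7.83 against 11.7, 8.02 and 11.03, overlapped. That value depended on FOXL2 siRNA replicate 2. Without this library, edgeR gave FOXN2 0.36 (adjusted p = 0.187) on counts. With offsets and without it, edgeR gave 0.31 (SE 0.130, unadjusted p = 0.0399, adjusted p = 0.328). Further genes with a mean of at least 1 TPM had log2 fold changes of 0.32 (FOXS1), 0.28 (FOXP2), 0.05 (FOXD1), -0.11 (FOXP4), -0.12 (FOXC2), -0.13 (FOXJ2) and -0.35 (FOXL1), none with an unadjusted p below 0.05.

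Lists of genes that act on or with these factors were read for changes that mRNA levels of the factors would not show. Among 32 upstream regulators of the FOXO proteins, all of which were tested, edgeR called 0, with 2 higher and 3 lower at an unadjusted p below 0.05, and DESeq2 called 1. Over all genes the shares were 6.67% higher and 6.78% lower, and 3.0% called by DESeq2. The gene that DESeq2 called in the list was MDM2, a ubiquitin ligase of p53 that also acts on FOXO proteins, at 55.3, 59.3 and 54.3 CPM in the controls and 75.8, 81.4 and 64.7 CPM after FOXL2 siRNA (log2 fold change 0.39, adjusted p = 0.125 from edgeR). The kinase genes PDPK1, which encodes the activator of AKT, and SGK3 had log2 fold changes of -0.24 and -0.57. Without FOXL2 siRNA replicate 2, edgeR called 3 of the list, which were PDPK1, SGK3 and the 14-3-3 gene YWHAG. That fit called 3.33% of all genes. The median of the list was 0.03.

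Of 35 FOXO target genes 25 were tested, and edgeR called 0, with 6 higher and 3 lower at an unadjusted p below 0.05, while DESeq2 called TXNIP alone. Among all genes, 6.67% were higher and 6.78% lower at that p, and DESeq2 called 3.0%. TXNIP, an inhibitor of thioredoxin, was at 143.8, 139.2 and 128.6 CPM against 89.6, 115.7 and 95.8 CPM, with every FOXL2 siRNA library below every control (log2 fold change -0.45, adjusted p = 0.112 from edgeR). The cell cycle inhibitor CDKN1B and the atypical cyclin CCNG2, both with non-overlapping conditions, had log2 fold changes of 0.35 and 0.33 with adjusted p-values of 0.233 and 0.193 from edgeR. Without FOXL2 siRNA replicate 2, where it called 3.33% of all genes, edgeR called TXNIP too. The list's median was 0.04, with 15 genes above 0 and 10 below.

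Among 36 target genes of FOXM1 and subunits of MuvB, the complex with which FOXM1 binds late cell cycle promoters, edgeR called 0, with 1 higher and 3 lower at an unadjusted p below 0.05, and DESeq2 called 1. Of all genes, the shares were again 6.67% higher, 6.78% lower and 3.0% called by DESeq2. KIF20A, a kinesin of cytokinesis and the gene that DESeq2 called, was at 207.6, 211.4 and 191.4 CPM against 164.3, 166.1 and 174.4 CPM (log2 fold change -0.27, adjusted p = 0.121 from edgeR). BUB1B, of the spindle checkpoint, and MYBL2, which precedes FOXM1 on MuvB, had log2 fold changes of -0.18 and -0.25. The median of the 36 was 0.01, and over all genes it was also 0.01.

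The corepressor partners of FOXK, FOXP and FOXN3 proteins were, of the 4 lists read here, the one with the most values on 1 side. edgeR called 0 of the 24, but at an unadjusted p below 0.05 it had 9 lower and 0 higher, where 6.78% of all genes were lower and 6.67% higher. The conditions did not overlap in 10, all lower, where 10.6% of all genes were lower and 9.97% higher without overlap. The median log2 fold change was -0.08, with 20 of 24 below 0. DESeq2 called 2 of the 24, where it called 3.0% of the genes to which it gave an adjusted p. SIN3B, called by DESeq2 and a scaffold of histone deacetylase complexes, was at 65.8, 70.1 and 73.9 CPM against 60.3, 53.4 and 55.1 CPM (log2 fold change -0.31, adjusted p = 0.135 from edgeR). Its relative SIN3A had a log2 fold change of -0.23. HDAC1 had the lowest value of the list at -0.57, with 138.9, 142.1 and 137.9 CPM against 130.3, 68.2 and 83.2 CPM, so that its FOXL2 siRNA libraries ranged widely. edgeR called 1 gene of the list without FOXL2 siRNA replicate 2, and 2, HDAC1 among them, without replicate 1. Over all genes, it called 534 (3.33%) without replicate 2 and 109 without replicate 1, against 41 with all libraries. The list was chosen with results of these data known and was not tested as a set.

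**Figure D5:**
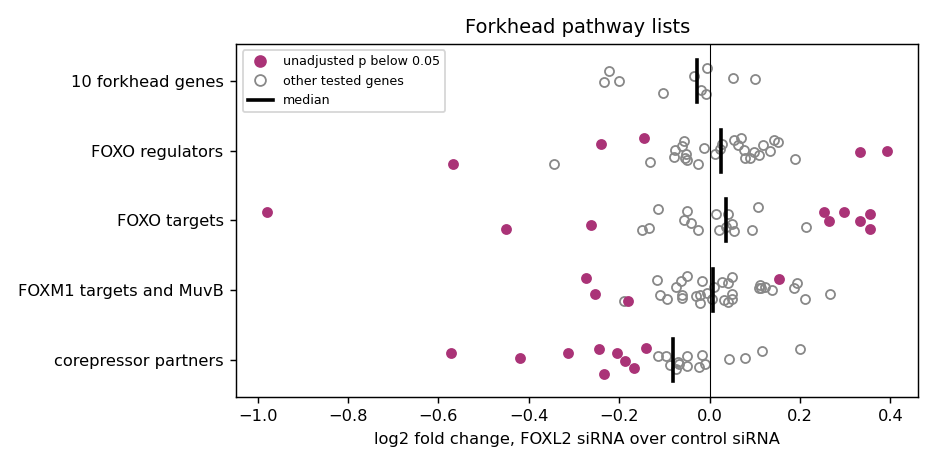
Log2 fold change of FOXL2 siRNA over control siRNA (horizontal axis) for each tested gene of the 10 forkhead genes and of 4 lists of regulators, targets and partners, with filled points for an unadjusted p below 0.05 in edgeR and a bar at each median. The medians lie between -0.08, for the corepressor partners, and 0.04, and no point passed the adjusted threshold.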

How the data were processed

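RNA from 6 KGN samples, 3 with FOXL2 siRNA pools and 3 with a control siRNA, was sequenced by the authors as stranded mRNA libraries with single reads of 75 bases. The authors aligned the reads with STAR 2.7.6a, checked them with Picard 2.8.1 and ran RSEM 1.3.1. The submitters' processing notes name a mouse build (GRCm38), but the gene identifiers are human, and the sources used here do not settle the human build or annotation. The deposited tables hold RSEM's expected counts, which are estimated counts that are not normalized, with TPM values, scaled by RSEM to library and transcript length, and the deposited mean and effective transcript lengths in bases. FPKM was not used.

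Expected counts were rounded and genes kept by filterByExpr (15663 of 60671). TMM set the library sizes. The quasi-likelihood test of edgeR 4.0.16 (R 4.3.3) compared the conditions, and p-values were adjusted by Benjamini-Hochberg and called below 0.05. Intervals are 95% intervals of that fit, errors are SDs of 3 libraries, and CPM is TMM-normalized. Log2 mean transcript lengths were compared with limma 3.58.1. The test scripts were tested on simulated data. Alternatives were DESeq2 1.42.0 (the study's tool), limma-voom, limma on log2(TPM + 1) or log2(TPM + 0.1) where mean TPM was at least 1, other size factors, filters and rounding, effective lengths as offsets, the replicate number as a block, and each library left out. The sum of FOXO3 and FOXO3B, and the offsets with each library left out, were added after values had been seen.

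The 10 genes and all lists were chosen with earlier results of these data known. Genes named are FOXL2, the 10 genes, other forkhead genes that averaged at least 1 TPM, and in each list the genes called by edgeR and the 3 with the smallest p. HDAC1, YWHAG, FOXD2, FOXP1-IT1 and the genes compared with FOXO3 and FOXN3 were named after their values were seen. All listed symbols but SOD2 matched 1 identifier. Coordinates and sequences are from GENCODE v29 (GRCh38), whose transcripts are not the set in the deposited tables. Those tables list 4 transcripts of FOXO1 and 1 of FOXL2, where GENCODE v29 has 3 and 2. Protein sequences were not used here, and a few genes and sequences that the rule selects are not reported here. Tables and plots used Python 3.11.15, numpy 2.4.6, pandas 2.3.3 and matplotlib 3.10.9.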

Additional observations from a re-analysis of the deposited data

How the results depend on the processing

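Of the 10 genes, 0 were called under every alternative except 1, edgeR without FOXL2 siRNA replicate 2, which called FOXN3. Some of these fits could not call every gene. FOXO1 had no adjusted p in any DESeq2 fit, and FOXO4 had none in the blocked DESeq2 fit. FOXO1 was also not among the genes fitted on log2(TPM) or at a mean of at least 50 counts. With offsets and 1 library left out the number called was 0 throughout, and over all left-out libraries it lay between 0 and 1. FOXL2 was called except without control siRNA replicate 1 and in the blocked DESeq2 fit, which gave it no adjusted p, and its log2 fold change with 1 library left out lay between -2.03 and -1.78. The summed TPM ratio of the 10 genes lay between 0.958 and 0.985 with 1 library left out.

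The sign changed for FOXO1, to 0.70 in edgeR and 0.71 in DESeq2 with effective lengths as offsets. It changed for 3 other genes on log2(TPM + 1), on log2(TPM + 0.1), in edgeR with offsets and in DESeq2 with offsets, in that order to 0.026, 0.027, 0.024 and 0.018 for FOXK2, to -0.057, -0.060, -0.065 and -0.070 for FOXJ3, and to 0.020, 0.023, 0.020 and 0.015 for FOXC1. With 1 library left out, with or without offsets, the values ranged from -0.41 to 0.99 for FOXO1, -0.24 to 0.15 for FOXO3, -0.12 to 0.070 for FOXP1, -0.052 to 0.051 for FOXK2, -0.12 to 0.073 for FOXJ3 and -0.038 to 0.073 for FOXC1. In the fits without offsets alone, they ranged from -0.24 to 0.031 for FOXC2 and from -0.021 to 0.098 for FOXD1.

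The number of genes called among all tested was 41 and depended on the fit, with 350 in DESeq2, 344 in DESeq2 with offsets, 13 on each log2(TPM) scale, 737 with no filter, 67 at a mean of at least 50 counts, and from 0 (without control siRNA replicate 1) to 534 (without FOXL2 siRNA replicate 2) with 1 library left out. The cause was not tested. With no filter, edgeR called 1 other forkhead gene (FOXN2), 3 FOXO regulators, 3 FOXO targets, 1 gene of the FOXM1 list and 3 corepressor partners. DESeq2 called 1, 1, 1 and 2 of those 4 lists, and 1 of each with offsets. Left-out libraries gave 0 to 3 FOXO regulators, 0 to 1 FOXO targets and 0 to 2 corepressor partners.

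No pairing by replicate number was seen: deviations from the condition means of same-numbered libraries correlated at -0.0301, 0.0473 and 0.0478. With 3 libraries per condition, these values cannot show whether same-numbered libraries shared a culture or batch. With the replicate block, edgeR called 11 genes and DESeq2 183, with 0 of the 10 genes in either and 1 FOXO regulator, 1 FOXO target and 1 corepressor partner in DESeq2. Depth limits FOXO1, with 35 to 64 counts per library, and FOXO4.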
